A study of Homo sapiens with 16 samples.

Results

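Glycolysis and the transcripts induced by low oxygen were followed here through 34 genes out of the 56865 to which the deposited transcripts could be matched. They were listed by function: 17 core glycolytic enzymes, 2 glucose carriers, 3 enzymes that switch flux into or out of glycolysis, 11 other targets of the hypoxia-inducible factors (HIFs), and HIF1A, which encodes the oxygen-regulated HIF-1 alpha subunit. A filter on low counts left 32 of the 34 for testing, and CA9 and EGLN3 did not pass it. Glycolysis splits glucose into pyruvate in the cytosol, and lactate dehydrogenase turns pyruvate into lactate. When oxygen is short, HIF alpha subunits escape prolyl hydroxylation and degradation, enter the nucleus and bind short motifs near many glycolytic genes and near genes for blood vessel growth, mitophagy and collagen hydroxylation. Tumour cells often run glycolysis at a high rate with oxygen present.

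The study set the compound MS78 against vehicle in the human lung carcinoma line NCI-H1299 (non-small cell type), with RNA sequencing of polyA-selected mRNA. The 4 groups were p53-Y220C cells given MS78, p53-Y220C cells given DMSO, p53-null cells given MS78 and p53-null cells given DMSO, with 4 libraries each; MS78 was used at 10 µM and both treatments lasted 24 h. The p53-Y220C cells are a stable NCI-H1299 line with the Y220C mutant of p53 and were kept in medium with G418, which the labels do not give for the null cells. The mutant, the selection drug and the history of the stable line therefore cannot be told apart in any difference between the lines. Whether the 4 libraries of a group came from separate cultures is not given, and the p-values then cover only library-to-library spread, which may be technical.

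Libraries held 20300000 to 27700000 assigned reads. The cytokeratin genes KRT8 and KRT18 and the mesenchymal gene VIM were present in every library, while EPCAM and CDH1 lay under 2 CPM (read counts scaled to the library's normalised size) and the lung lineage genes NKX2-1 and SFTPC were at or near 0. In 8 libraries (replicates 2 to 4 of each MS78 group and replicate 1 of each DMSO group) the leukocyte gene PTPRC had 55 to 99 reads, and 14 leukocyte markers summed to 68.9 to 155 CPM; the other 8 libraries had 0 or 1 PTPRC read and marker sums of 2.95 to 10.5 CPM, and 13 of the 14 markers were higher in every library with PTPRC reads than in any without. Such reads were thus in 3 of 4 MS78 libraries and 1 of 4 DMSO libraries of each line. Between the libraries with and without them, within groups, 0 of the 32 members passed at an adjusted p of 0.05 by edgeR's quasi-likelihood test (1 at an unadjusted p under 0.05; median log2 difference 0.04), against 0.982% of all genes (0.963% higher, 0.0191% lower).

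HIF binds a core of ACGTG or GCGTG, so the bases upstream of the transcription start were searched for both motifs on both strands. RefSeq starts on GRCh38.p14 were found for 30 members with 54 upstream windows of 250 bases; SLC2A3, BNIP3L, NDRG1 and VEGFA had no entry. ACGTG was in 21 of the 54 member windows (38.9%) and in 18.5% of 35116 windows of the same length over all genes; GCGTG was in 31.5% and 32.2% of these windows. ACGTG overlaps CACGTG, the E-box bound by other factors, which was in 16.7% of member windows and 6.3% of all windows. By gene, ACGTG was in at least 1 window for 11 of 17 core enzymes and 5 of 8 other HIF targets with an entry. The share by gene over all genes was not counted. The 18.5% is per window, and a gene with more windows can match more easily, so these counts cannot be set against it. The windows of 5 members are shown as examples. All 5 hold ACGTG, and the lines differed in their MS78 responses, given later. Both also hold for GPI, GAPDH, TPI1, PFKFB3 and PDK1, whose windows are not shown. The response was higher in p53-Y220C cells than in null cells for BHLHE40 and P4HA1, and lower for LDHA, PGK1 and BNIP3. Capitals mark ACGTG or GCGTG on either strand, and each window ends at the base before the start site.
BHLHE40, chr3:4979187-4979436, plus strand: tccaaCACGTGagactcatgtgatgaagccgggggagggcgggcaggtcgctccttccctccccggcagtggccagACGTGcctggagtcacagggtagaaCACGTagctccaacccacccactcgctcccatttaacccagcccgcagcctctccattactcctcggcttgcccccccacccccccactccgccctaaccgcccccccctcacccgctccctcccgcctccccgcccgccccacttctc
P4HA1, chr10:73096867-73097116, minus strand: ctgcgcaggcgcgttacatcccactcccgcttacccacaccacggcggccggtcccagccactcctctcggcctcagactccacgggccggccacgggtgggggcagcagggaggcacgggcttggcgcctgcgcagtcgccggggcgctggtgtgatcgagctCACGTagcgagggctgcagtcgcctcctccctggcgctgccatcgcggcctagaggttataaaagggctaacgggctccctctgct
LDHA, chr11:18394313-18394562, plus strand: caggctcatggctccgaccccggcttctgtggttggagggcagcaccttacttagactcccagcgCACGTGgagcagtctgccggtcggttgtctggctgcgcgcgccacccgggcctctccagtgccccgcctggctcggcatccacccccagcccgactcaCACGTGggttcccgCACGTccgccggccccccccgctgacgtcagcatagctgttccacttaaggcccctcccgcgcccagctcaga
PGK1, chrX:78103998-78104247, plus strand: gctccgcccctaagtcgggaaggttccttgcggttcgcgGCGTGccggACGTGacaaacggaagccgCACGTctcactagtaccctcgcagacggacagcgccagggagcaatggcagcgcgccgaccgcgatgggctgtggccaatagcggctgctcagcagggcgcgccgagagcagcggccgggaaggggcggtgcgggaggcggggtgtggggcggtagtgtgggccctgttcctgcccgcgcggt
BNIP3, chr10:131981924-131982173, minus strand: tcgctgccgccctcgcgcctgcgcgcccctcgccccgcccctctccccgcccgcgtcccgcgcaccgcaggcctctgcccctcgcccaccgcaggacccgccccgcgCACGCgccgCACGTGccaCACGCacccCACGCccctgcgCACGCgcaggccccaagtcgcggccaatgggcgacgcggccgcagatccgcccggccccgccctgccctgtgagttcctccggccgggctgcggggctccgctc
The BHLHE40 window holds ACGTG on both strands, including 1 CACGTG, and the LDHA window holds 2 CACGTG and 1 further match. The P4HA1 window has 1 match and the BNIP3 window has 4 GCGTG matches beside 1 CACGTG. A match describes the letters and was not tested for binding.

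Levels between genes were compared per length, as TPM (transcript abundance corrected for length and scaled to a fixed total per library) averaged over the 16 libraries. GAPDH, glyceraldehyde-3-phosphate dehydrogenase, was the most abundant member with 9048 TPM, followed by the enolase gene ENO1 (2705 TPM), the aldolase gene ALDOA (2054 TPM), the pyruvate kinase gene PKM (1524 TPM), the lactate dehydrogenase gene LDHB (1384 TPM) and the triosephosphate isomerase gene TPI1 (1182 TPM). LDHA stood at 609 TPM and the phosphoglycerate kinase gene PGK1 at 368 TPM. Each of the 11 other HIF targets was under 50 TPM: BNIP3L had 47.1 TPM, VEGFA 31.9 TPM, BHLHE40 18.95 TPM and NDRG1 2.81 TPM. ALDOC had 1.04 TPM, EGLN3 0.0900 TPM and CA9 0.0461 TPM. CA9, the membrane carbonic anhydrase often used as a hypoxia marker, had 0 to 4 reads in any library, and EGLN3, a HIF prolyl hydroxylase, had 1 to 7 reads; no difference in either was detectable at this depth.

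Summed, the 17 core enzymes took 1.60% ± 0.0219 of all TPM in p53-Y220C cells with MS78 and 1.81% ± 0.0796 with DMSO, and 2.40% ± 0.0643 in null cells with MS78 and 2.17% ± 0.124 with DMSO (SD, n = 4 each). The libraries of p53-Y220C cells ran from 1.57 to 1.63% with MS78 and from 1.74 to 1.89% with DMSO, without overlap. Those of null cells ran from 2.31 to 2.47% with MS78 and from 2.00 to 2.30% with DMSO, so the MS78 share lay below its vehicle in the mutant line and above it in the null line. The sum is weighted towards the most abundant enzymes. GAPDH alone had 7019 TPM with MS78 and 8466 TPM with DMSO in p53-Y220C cells, and 10760 and 9952 TPM in null cells. ALDOA had 2066 and 1384 TPM in p53-Y220C cells, and 2988 and 1778 TPM in null cells. A bulk library cannot tell fewer cells with a transcript from less of it per cell.

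The members varied more among the 4 null DMSO libraries than in any other group. Their median coefficient of variation was 2.94% in p53-Y220C cells with MS78, 5.00% in p53-Y220C cells with DMSO, 3.94% in null cells with MS78 and 11.1% in null cells with DMSO, while over all 15687 genes tested it lay between 6.15 and 7.91% in every group. In null DMSO cells 24 of 32 members were highest in replicate 3, against 23.6% of all genes, and 23 of 32 were lowest in replicate 4, against 27.3% of all genes. Replicates 1 and 3 both lay above replicates 2 and 4 for 25 of 32 members (78.1%) and for 14.6% of all genes. BNIP3, whose product drives removal of mitochondria, had 58.0, 44.8, 87.0 and 44.5 CPM in null DMSO replicates 1 to 4. PFKFB4, which makes the activator of phosphofructokinase, had 17.9, 11.3, 22.8 and 10.8 CPM there, and PGK1 had 820, 719, 997 and 686 CPM. The highest of these libraries exceeded the lowest 1.95-fold for BNIP3, 2.12-fold for PFKFB4, 1.45-fold for PGK1 and 3.06-fold for ALDOC. PTPRC reads were in replicate 1 of this group and not in replicates 2 to 4; their part in the spread was not tested. Values without null DMSO replicate 3 are given for the counts and for the members it moved most. The core enzymes alone also leaned by library in other groups. In p53-Y220C cells with DMSO, 12 of 17 were lowest in replicate 4, against 28.2% of all genes. There 10 of 17 were highest in replicate 2, against 30.5% of all genes. In null cells with MS78, 12 of 17 were lowest in replicate 1, against 27.1% of all genes.

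**Figure D1:**
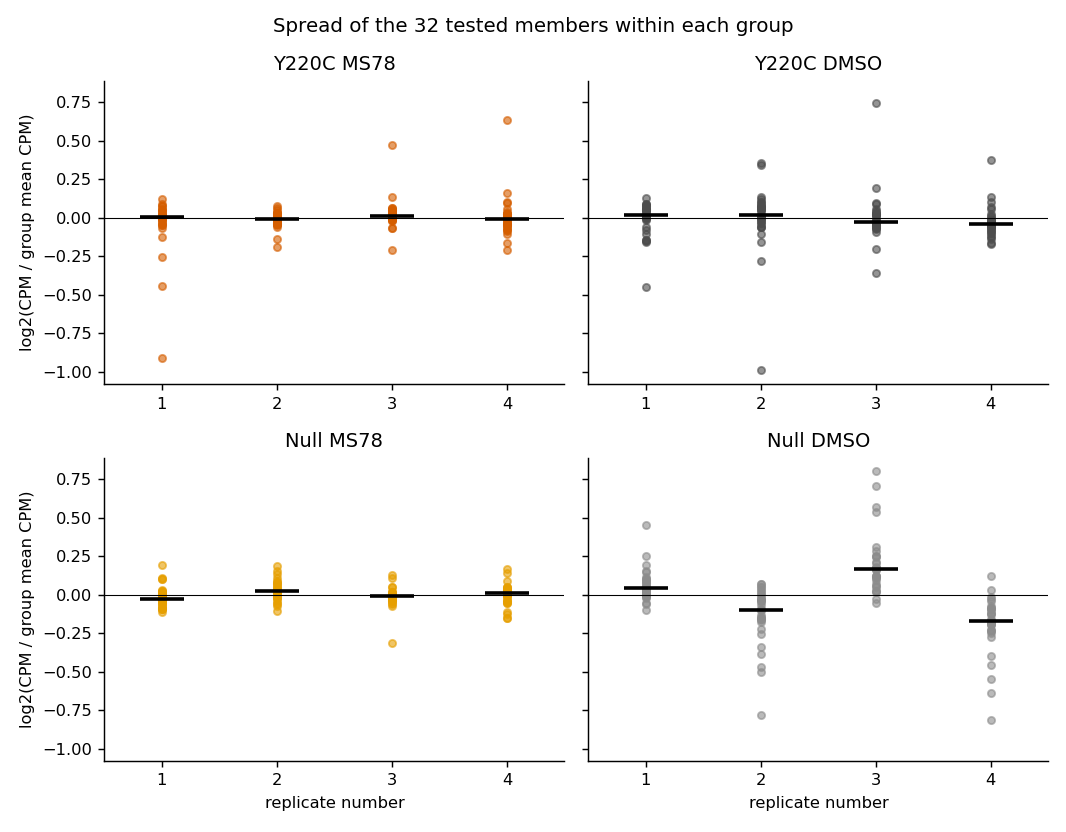
Each point is 1 of the 32 tested members in 1 library, as the log2 ratio of its CPM to the mean CPM of its group, by replicate number in the 4 groups; black bars are medians over members. In null DMSO cells the medians of replicates 1 and 3 lie above 0 and those of replicates 2 and 4 below it, while the medians of the other groups stay close to 0. The medians pool all roles, and the core enzymes alone also leaned by library in other groups.

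MS78 lowered most abundant glycolytic enzymes in p53-Y220C cells and raised several in null cells. It raised most of the 9 other HIF targets tested in both lines. A wider list of HIF-responsive genes, given later, was more mixed in p53-Y220C cells. In p53-Y220C cells 16 of 32 members rose and 10 fell, where 48.5% of all genes passed (24.9% higher and 23.6% lower). In null cells 17 of 32 rose and 1 fell, where 28.1% of all genes passed (14.8% higher and 13.3% lower). The MS78 and DMSO libraries did not overlap for 26 of 32 members in p53-Y220C cells, against 41.3% of all genes, and for 15 of 32 in null cells, against 29.3% of all genes. The 17 core enzymes split into 3 higher and 10 lower in p53-Y220C cells (median log2 fold change -0.14, all genes -0.01) and 7 higher and 0 lower in null cells (median 0.08, all genes 0.01). The 9 other HIF targets tested split into 7 higher and 0 lower in p53-Y220C cells (median 0.42) and 6 higher and 1 lower in null cells (median 0.43). In both lines 12 members rose; GAPDH and LDHA fell in p53-Y220C cells and rose in null cells, and VEGFA did the reverse. ALDOC, PGK1 and BNIP3 rose in null cells and did not pass in p53-Y220C cells, SLC2A1, PFKFB3 and ADM rose in p53-Y220C cells and did not pass in null cells, and 8 members fell in p53-Y220C cells and did not pass in null cells. HK2, PFKM and NDRG1 passed in neither line.

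Libraries with PTPRC reads alone gave 15 higher and 10 lower in p53-Y220C cells and 16 higher and 1 lower in null cells. Libraries without them, where MS78 is 1 library, gave 8 higher and 2 lower in p53-Y220C cells and 8 higher and 0 lower in null cells. Without null DMSO replicate 3 the null counts were 18 and 1, and the log2 fold changes in null cells were 2.07 for ALDOC, 1.35 for ANKRD37, 1.07 for BNIP3, 0.76 for ENO2, 0.71 for PDK1, 0.31 for LDHA and 0.18 for GAPDH. With all libraries these were 1.67, 1.02, 0.83, 0.66, 0.62, 0.22 and 0.14. PFKFB4, which rose 2.04-fold with all libraries, had a log2 fold change of 1.25 without that one.

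**Figure D2:**
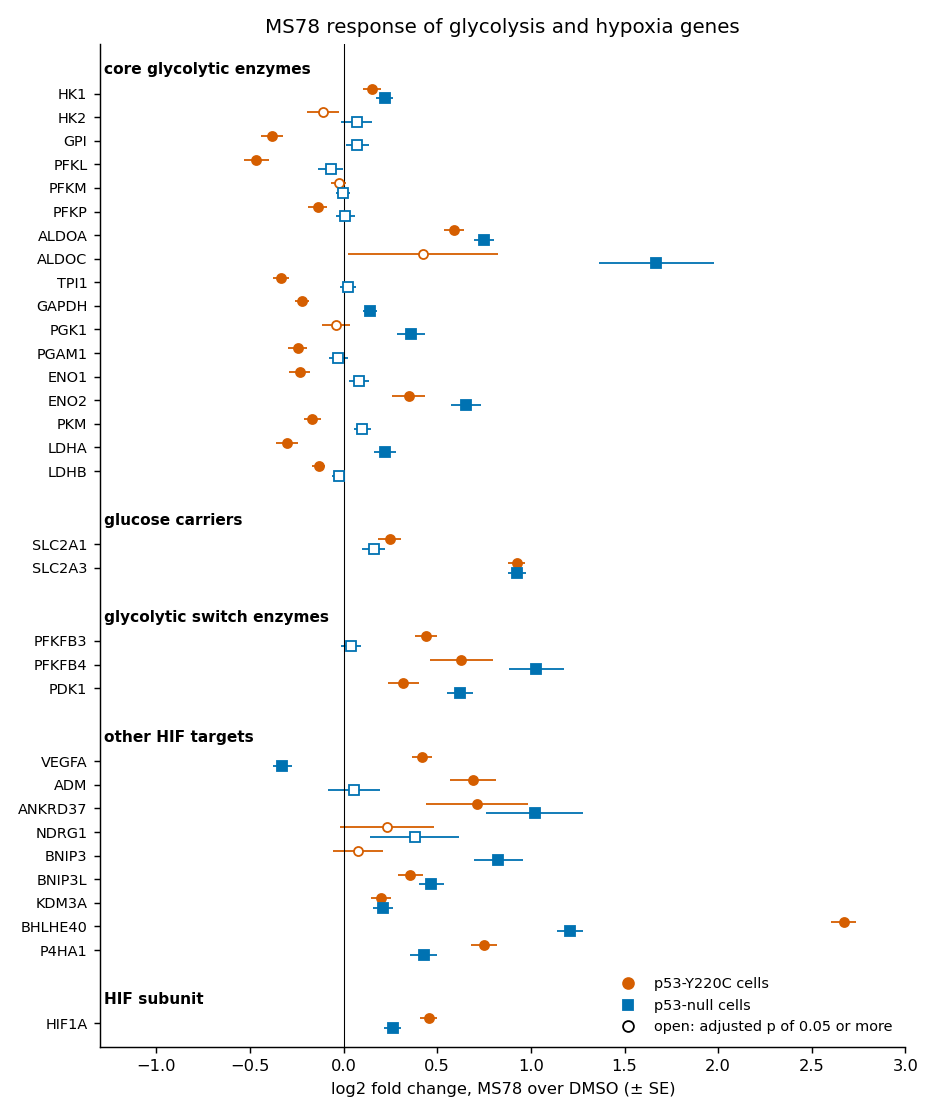
Log2 fold change of MS78 over DMSO with its standard error for the 32 tested members by role, in p53-Y220C cells (orange circles, upper of each pair) and null cells (blue squares); open symbols did not pass an adjusted p of 0.05. Orange points lie left of 0 for 13 of 17 core enzymes, and for the other HIF targets all orange points lie right of 0, with BHLHE40 farthest at 2.67.

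The first steps of glycolysis moved little or fell. HK1, the hexokinase of most tissues, had 66.9, 66.2, 67.4 and 67.6 CPM with MS78 and 61.2, 61.2, 58.2 and 60.4 CPM with DMSO in p53-Y220C cells, a 1.11-fold rise (adjusted p = 0.0117), and rose 1.16-fold in null cells (adjusted p = 0.00115). The HK1 call in p53-Y220C cells was lost with library totals as the only scaling (log2 0.06, adjusted p = 0.315) and with gene length offsets (0.14, adjusted p = 0.0798). HK2, the inducible hexokinase, averaged 37.2 ± 0.811 CPM with MS78 and 40.1 ± 1.86 CPM with DMSO in p53-Y220C cells (SD, n = 4 each) and did not pass in either line. GPI, which turns glucose-6-phosphate into fructose-6-phosphate (ENSG00000105220, chr19:34359480-34402413), had 558, 565, 553 and 537 CPM with MS78 and 728, 760.4, 695 and 701 CPM with DMSO in p53-Y220C cells. The MS78 libraries all lay below the DMSO libraries, a log2 fold change of -0.38 ± 0.0612 (SE; adjusted p = 2.77e-05). In null cells GPI had 535, 625, 564 and 550.1 CPM with MS78 and 571, 506, 609.8 and 473 CPM with DMSO, which overlap (log2 fold change 0.07, adjusted p = 0.41).

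Among the phosphofructokinases, which commit sugar to glycolysis, the liver form PFKL fell to 105, 110.2, 111 and 104 CPM with MS78, against 157, 162, 144 and 132 CPM with DMSO in p53-Y220C cells (log2 fold change -0.47 ± 0.0673 SE, adjusted p = 8.07e-06). It did not pass in null cells, with 159 ± 7.17 CPM for MS78 and 167 ± 17.3 CPM for DMSO. The platelet form PFKP fell in p53-Y220C cells (log2 fold change -0.14, adjusted p = 0.0322). That call was lost without any 1 of 5 libraries (MS78 replicates 1 to 3, DMSO replicates 1 and 2), with adjusted p-values up to 0.0978. The muscle form PFKM had log2 fold changes of -0.03 in p53-Y220C cells and -0.00449 in null cells, neither past the threshold.

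ALDOA, the main aldolase (ENSG00000149925, chr16:30064164-30070457), ran against the other abundant enzymes of p53-Y220C cells. It had 1770.3, 1700.1, 1695 and 1659 CPM with MS78 and 1163, 1207, 1086 and 1079.5 CPM with DMSO in p53-Y220C cells, and 2322, 2422, 2381 and 2402 CPM with MS78 and 1457, 1378, 1597 and 1232 CPM with DMSO in null cells. MS78 libraries were above DMSO libraries in both lines, with log2 fold changes of 0.59 ± 0.0546 and 0.75 ± 0.0546 (SE; adjusted p = 1.83e-08 and 9.86e-10). ALDOC, the brain aldolase, stood at 0.554 ± 0.236 CPM with MS78 and 0.410 ± 0.11 CPM with DMSO in p53-Y220C cells, and at 3.07 ± 0.274 CPM with MS78 and 0.966 ± 0.535 CPM with DMSO in null cells. It rose 3.18-fold in null cells (adjusted p = 0.000278) and did not pass in p53-Y220C cells, where it had 6 to 17 reads per library.

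Of the lower steps, GAPDH, TPI1, PGAM1 and ENO1 fell in p53-Y220C cells, while ENO2 rose and PGK1 did not pass. GAPDH (ENSG00000111640, chr12:6533927-6538374) had 6899, 6597, 6539.5 and 6069.6 CPM with MS78 and 7670.3, 7723, 7569 and 7495 CPM with DMSO in p53-Y220C cells, and 9233, 9365, 9263 and 9337 CPM with MS78 and 8126, 8261, 9153 and 8188 CPM with DMSO in null cells. The groups did not overlap in either line, but the order was opposite: the log2 fold change was -0.22 ± 0.0361 in p53-Y220C cells (adjusted p = 3.23e-05) and 0.14 ± 0.0361 in null cells (adjusted p = 0.00528). TPI1, which interconverts the triose phosphates, fell to 651 ± 31.3 CPM with MS78, against 819.8 ± 37.6 CPM with DMSO in p53-Y220C cells (adjusted p = 2.54e-06), and stood at 1011 ± 17.3 and 995 ± 63.8 CPM in null cells, where it did not pass. The phosphoglycerate mutase gene PGAM1 had a log2 fold change of -0.25 and ENO1 one of -0.24 in p53-Y220C cells (adjusted p = 0.000593 and 0.0012), and neither passed in null cells. ENO2, the neuronal enolase, rose in both lines, with log2 fold changes of 0.35 in p53-Y220C cells (adjusted p = 0.00227) and 0.66 in null cells (adjusted p = 2.49e-06).

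PGK1, the first ATP-yielding step, had 562, 542, 577 and 552 CPM with MS78 and 596, 581, 562 and 554 CPM with DMSO in p53-Y220C cells, which overlap (adjusted p = 0.699). In null cells it had 1007, 1085, 1022 and 1025 CPM with MS78, all above the 820, 719, 997 and 686 CPM with DMSO (log2 fold change 0.36 ± 0.0746 SE, adjusted p = 0.00087). Without null DMSO replicate 3 that change was 0.47, and over all 8 libraries left out in turn it ran from 0.29 to 0.47.

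LDHA, the lactate dehydrogenase subunit tied to lactate output (ENSG00000134333, chr11:18394388-18408425), had 474, 467, 492 and 447 CPM with MS78 and 600.4, 576, 569 and 573 CPM with DMSO in p53-Y220C cells. It had 883, 905, 888 and 899 CPM with MS78 and 753, 699, 911 and 702 CPM with DMSO in null cells. The mutant groups stood apart, with a log2 fold change of -0.30 ± 0.0591 (adjusted p = 0.000247); in null cells only DMSO replicate 3 reached the MS78 range, and the log2 fold change was 0.22 ± 0.0585 (adjusted p = 0.00677). LDHB, the heart subunit, fell slightly in p53-Y220C cells (log2 fold change -0.13, adjusted p = 0.00328) and did not pass in null cells (-0.03). By TPM, LDHB made up 76.5% ± 1.15 of LDHA plus LDHB with MS78 and 74.5% ± 0.844 with DMSO in p53-Y220C cells, and 62.2% ± 0.932 with MS78 and 66.4% ± 3.19 with DMSO in null cells (SD, n = 4 each). The null libraries overlapped, with 61.3 to 63.1% for MS78 and 62.0 to 69.3% for DMSO, and these shares were not tested.

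PKM fell in p53-Y220C cells to 1733, 1667, 1689 and 1732 CPM with MS78, against 2021, 2054, 1799.8 and 1785 CPM with DMSO (log2 fold change -0.17 ± 0.046 SE, adjusted p = 0.00496), and did not pass in null cells (3106 ± 105 CPM with MS78 and 2898 ± 171 CPM with DMSO, adjusted p = 0.117). The gene carries a pair of mutually exclusive exons, M1, typical of muscle and brain, and M2, typical of growing and tumour cells. They are shown because the choice between them is a second readout of PKM. Both are exon 9 of 11 in their transcripts, lie inside the coding region and have 167 bases each, of which 105 are identical (62.9%). Sequences are from GENCODE 29 transcripts on GRCh38, and capitals mark the 62 bases that differ.
PKM exon M1, chr15:72203022-72203188, minus strand: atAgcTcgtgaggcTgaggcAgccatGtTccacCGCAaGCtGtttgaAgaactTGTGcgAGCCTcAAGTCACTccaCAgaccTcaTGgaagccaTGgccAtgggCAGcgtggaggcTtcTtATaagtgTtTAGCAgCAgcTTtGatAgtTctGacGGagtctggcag
PKM exon M2, chr15:72202454-72202620, minus strand: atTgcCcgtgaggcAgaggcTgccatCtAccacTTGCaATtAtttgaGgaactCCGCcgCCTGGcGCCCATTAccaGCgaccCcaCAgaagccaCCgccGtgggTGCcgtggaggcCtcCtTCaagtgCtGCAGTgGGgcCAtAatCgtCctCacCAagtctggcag
The M1 share is the TPM of transcripts with M1 over that of PKM transcripts with either exon. It was 1.21% ± 0.0409 with MS78 and 1.29% ± 0.261 with DMSO in p53-Y220C cells. In null cells it was 0.991% ± 0.101 with MS78 and 1.07% ± 0.0981 with DMSO (SD, n = 4 each). M1 lay between 0.921 and 1.64% in the libraries, with the highest value in p53-Y220C DMSO replicate 2, and neither response was larger than the spread (exact two-sided permutation p = 0.657 and p = 0.343; the smallest p for 4 against 4 is 0.0286). Without that library the difference in p53-Y220C cells was 0.0342 percentage points, against -0.0812 with it.

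**Figure D3:**
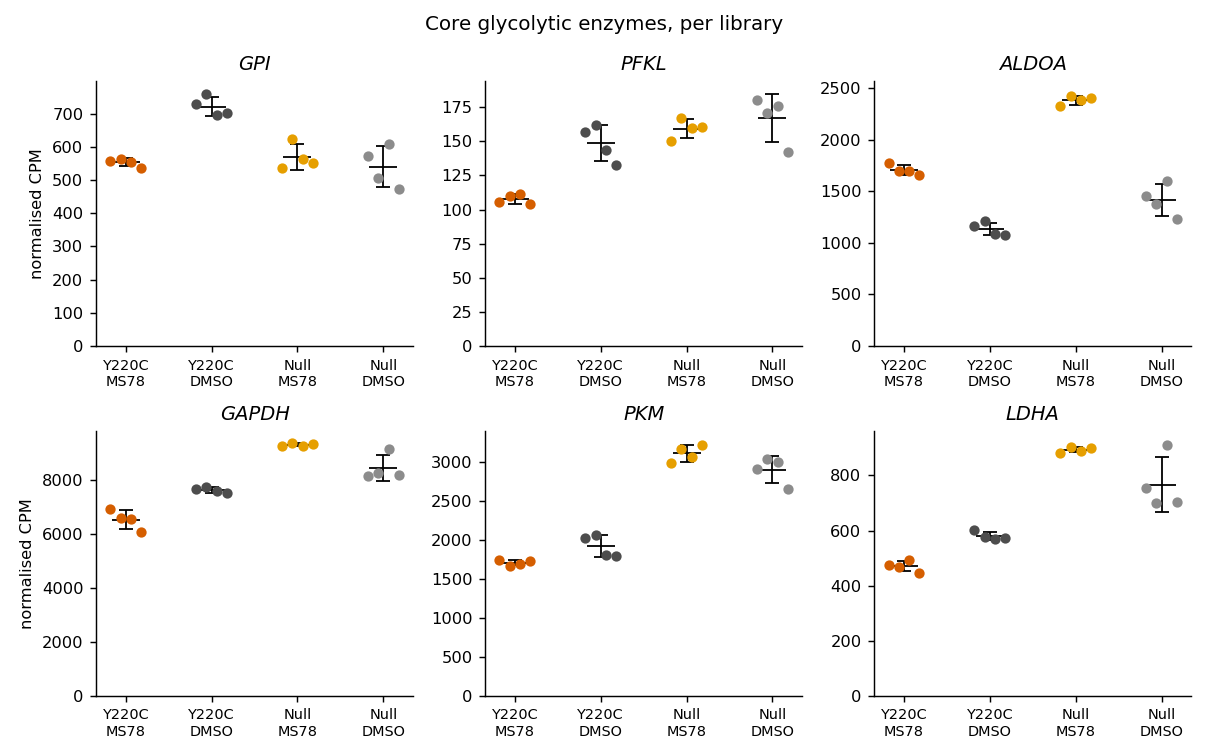
Normalised CPM of 6 core enzymes in each library (points), with the group mean and SD, for p53-Y220C cells and null cells with MS78 and DMSO. For GPI, PFKL, GAPDH, PKM and LDHA the MS78 points of p53-Y220C cells lie below their DMSO points, while for ALDOA the MS78 points lie above DMSO in both lines.

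Of the glucose carriers, SLC2A3 (GLUT3, a carrier with high affinity; ENSG00000059804, chr12:7919230-7936275) rose in both lines. It had 361, 352, 365 and 369 CPM with MS78 and 192, 196, 187 and 187 CPM with DMSO in p53-Y220C cells, and 273, 279, 278 and 268 CPM with MS78 and 145, 135, 164 and 135 CPM with DMSO in null cells. Groups were far apart in both lines; the log2 fold change was 0.92 ± 0.0467 in p53-Y220C cells (adjusted p = 1.31e-12) and 0.93 ± 0.047 in null cells (adjusted p = 4.16e-12). SLC2A1 (GLUT1, the basal carrier) rose 1.19-fold in p53-Y220C cells (81.3 ± 3.65 CPM with MS78, 68.6 ± 2.60 CPM with DMSO, adjusted p = 0.00285); with gene length offsets it did not pass (log2 0.18, adjusted p = 0.124). In null cells it had 88.4 ± 2.21 CPM with MS78 and 79.2 ± 9.45 CPM with DMSO (adjusted p = 0.0584); without null DMSO replicate 1 or 3 the adjusted p was 0.0295 or 0.0116. By TPM, SLC2A3 made up 67.6% ± 1.89 of both carriers with MS78 and 56.0% ± 2.02 with DMSO in p53-Y220C cells, and 59.4% ± 0.530 with MS78 and 45.8% ± 3.01 with DMSO in null cells.

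All 3 switch enzymes rose in p53-Y220C cells, while in null cells PFKFB4 and PDK1 rose and PFKFB3 did not pass. PFKFB3, which makes fructose-2,6-bisphosphate and so speeds phosphofructokinase, had 21.1, 22.1, 22.2 and 21.8 CPM with MS78 and 15.9, 14.4, 16.3 and 17.6 CPM with DMSO in p53-Y220C cells, a 1.36-fold rise (adjusted p = 4.09e-06). In null cells its 26.3, 25.9, 27.4 and 28.8 CPM with MS78 and 27.3, 27.6, 25.4 and 25.0 CPM with DMSO overlapped (adjusted p = 0.657). PFKFB4, an isoenzyme of PFKFB3, rose 1.55-fold in p53-Y220C cells (adjusted p = 0.00407) and 2.04-fold in null cells (adjusted p = 1.95e-05). PDK1, the kinase that shuts off pyruvate dehydrogenase, rose 1.25-fold in p53-Y220C cells (adjusted p = 0.00254) and 1.54-fold in null cells (adjusted p = 8.03e-07).

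BHLHE40, a transcriptional repressor induced by hypoxia and by many stresses (ENSG00000134107, chr3:4979116-4985323; its upstream window is printed above), gave the highest fold change among the members in p53-Y220C cells. It had 119, 122, 120.5 and 116 CPM with MS78 and 20.6, 18.1, 19.1 and 17.6 CPM with DMSO in p53-Y220C cells, and 39.8, 42.6, 46.4 and 40.9 CPM with MS78 and 19.7, 17.1, 20.6 and 16.1 CPM with DMSO in null cells. The 2 DMSO groups overlapped, and each MS78 group stood above them, 6.35-fold in p53-Y220C cells (log2 2.67 ± 0.0663 SE, adjusted p = 9.07e-18) and 2.31-fold in null cells (log2 1.21 ± 0.0682 SE, adjusted p = 2.12e-11). P4HA1, the catalytic subunit of collagen prolyl 4-hydroxylase, rose 1.68-fold in p53-Y220C cells, with 94.3 ± 2.73 CPM for MS78 and 56.1 ± 0.917 CPM for DMSO (adjusted p = 1.73e-08). It rose 1.34-fold in null cells, with 66.7 ± 1.74 CPM for MS78 and 49.6 ± 7.73 CPM for DMSO (adjusted p = 7.83e-05).

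The secreted factors differed between the lines. VEGFA, the main growth factor of blood vessels (ENSG00000112715, chr6:43770184-43786487), had 73.2, 68.6, 70.7 and 68.1 CPM with MS78 and 48.9, 51.8, 55.8 and 53.5 CPM with DMSO in p53-Y220C cells. It had 51.8, 49.7, 47.1 and 44.1 CPM with MS78 and 63.8, 60.0, 61.5 and 56.9 CPM with DMSO in null cells. The groups did not overlap in either line: VEGFA rose 1.34-fold in p53-Y220C cells (log2 0.42 ± 0.0523 SE, adjusted p = 1.19e-06) and had a log2 fold change of -0.33 ± 0.0521 in null cells (adjusted p = 5.87e-05). ADM, the vasodilator peptide adrenomedullin, had 13.9, 13.1, 11.1 and 13.2 CPM with MS78 and 7.63, 10.2, 6.90 and 7.11 CPM with DMSO in p53-Y220C cells, a 1.62-fold rise (adjusted p = 0.000103). In null cells ADM had 4.78 ± 0.291 CPM with MS78 and 4.59 ± 0.862 CPM with DMSO (adjusted p = 0.813).

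The mitophagy receptors BNIP3 and BNIP3L, which sit on mitochondria and belong to the BCL2 family, did not move alike. BNIP3 had 80.9, 76.5, 81.0 and 73.7 CPM with MS78 and 73.7, 72.2, 76.9 and 72.9 CPM with DMSO in p53-Y220C cells, which overlap (adjusted p = 0.657). In null cells it had 105, 107, 103 and 99.7 CPM with MS78, above the 58.0, 44.8, 87.0 and 44.5 CPM with DMSO (1.77-fold, log2 0.83 ± 0.131 SE, adjusted p = 5.87e-05); without null DMSO replicate 3 the log2 fold change was 1.07. BNIP3L rose in both lines, 1.28-fold in p53-Y220C cells (adjusted p = 0.0002) and 1.38-fold in null cells (adjusted p = 1.33e-05).

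KDM3A, a histone H3 lysine 9 demethylase, rose 1.15-fold in p53-Y220C cells and 1.16-fold in null cells (adjusted p = 0.00389 and 0.00516). Its change in p53-Y220C cells did not pass with gene length offsets (adjusted p = 0.356) or with library totals as the only scaling (adjusted p = 0.106). ANKRD37, a small ankyrin repeat protein, stood at 1.88 ± 0.490 CPM with MS78 and 1.14 ± 0.240 CPM with DMSO in p53-Y220C cells (1.64-fold, adjusted p = 0.0375) and at 2.73 ± 0.418 CPM with MS78 and 1.35 ± 0.610 CPM with DMSO in null cells (2.03-fold, adjusted p = 0.0049). Its call in p53-Y220C cells was lost without DMSO replicate 1, 3 or 4 or MS78 replicate 3, with adjusted p-values up to 0.155, and also with gene length offsets (0.14), library totals (0.0648) or the replicate number as a block (0.0581). NDRG1, a stress response gene, had 3.73, 5.31, 5.58 and 5.68 CPM with MS78 and 3.90, 2.17, 7.23 and 3.96 CPM with DMSO in p53-Y220C cells and passed in neither line; without DMSO replicate 3 of the mutant line its log2 fold change of 0.23 became 0.59 (adjusted p = 0.0316).

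HIF1A (ENSG00000100644, chr14:61695513-61748259) had 199, 204, 202 and 196 CPM with MS78 and 147, 136, 149 and 152 CPM with DMSO in p53-Y220C cells, and 175, 159, 161 and 159 CPM with MS78 and 127, 132, 138 and 148 CPM with DMSO in null cells. Its transcript was higher with MS78 in every library of both lines, 1.37-fold in p53-Y220C cells (adjusted p = 7.59e-08) and 1.20-fold in null cells (adjusted p = 0.000188). HIF-1 alpha is controlled largely at the protein level, which was not measured here.

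**Figure D4:**
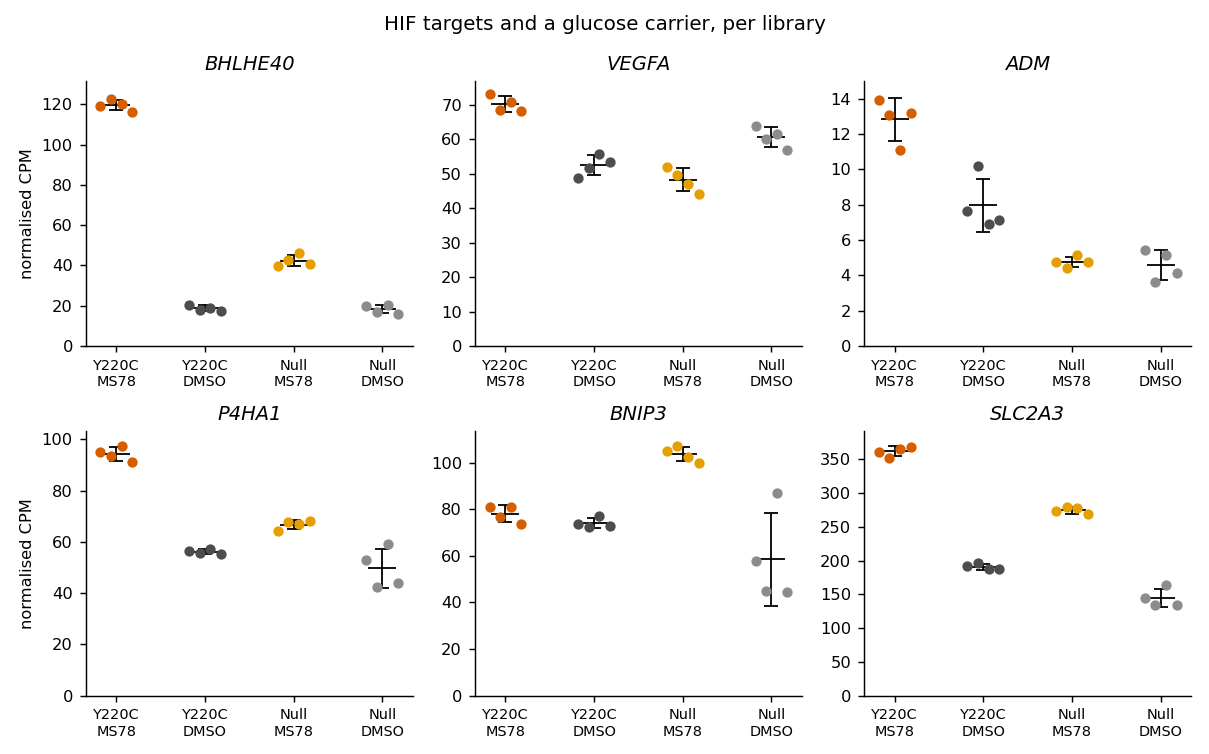
Normalised CPM of 5 other HIF targets and the carrier SLC2A3 in each library (points), with the group mean and SD. BHLHE40 reaches 116 to 122 CPM in p53-Y220C cells with MS78, VEGFA lies above DMSO in p53-Y220C cells and below it in null cells, and BNIP3 is spread from 44.5 to 87.0 CPM in null cells with DMSO.

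Whether the response itself differed between the lines was tested with an interaction term, the log2 fold change in p53-Y220C cells minus that in null cells. The term was positive for 6 members and negative for 11 past the threshold, where 26.8% of all genes passed (14.4% positive and 12.4% negative). All 17 core enzymes had a value below 0 (median -0.31, all genes -0.02), and for 9 the difference passed: LDHA (-0.52), GPI (-0.46), PGK1 (-0.40), PFKL (-0.40), GAPDH (-0.36), TPI1 (-0.35), ENO1 (-0.32), PKM (-0.27) and PGAM1 (-0.22). For LDHA the SE was 0.0831 and the adjusted p was 9e-05. The 17 values come from the same libraries and are not independent of each other.

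The 9 other HIF targets lay on both sides of 0, with 4 higher, 1 lower and a median of -0.01. That median was 0.40 within libraries with PTPRC reads, -0.04 within those without, 0.16 with gene length offsets and 0.21 without p53-Y220C DMSO replicate 3. BHLHE40 differed by 1.46 ± 0.0958 (adjusted p = 7.75e-10), VEGFA by 0.75 ± 0.0738 (adjusted p = 2.85e-07), ADM by 0.64 ± 0.187 (adjusted p = 0.0154) and P4HA1 by 0.32 ± 0.0982 (adjusted p = 0.0192), all with a higher value in p53-Y220C cells. BNIP3 differed by -0.75 ± 0.187 (adjusted p = 0.00519), and by -0.998 without null DMSO replicate 3. PFKFB3 differed by 0.40 (adjusted p = 0.000997), while the 2 carriers did not pass: SLC2A3 differed by -0.000905 ± 0.0654 (SE, adjusted p = 0.995) and SLC2A1 by 0.09 ± 0.0877.

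PDK1 (-0.30, adjusted p = 0.0425), PGAM1 (adjusted p = 0.0343) and HIF1A (0.19, adjusted p = 0.0352) were near the threshold. PDK1 lost the call without any 1 of 13 libraries, all except null DMSO replicates 1 and 3 and p53-Y220C DMSO replicate 1, with adjusted p-values up to 0.0916. PGAM1 lost it without any 1 of 9 (null DMSO 2 and 4, null MS78 2 to 4, p53-Y220C DMSO 1 and 2, p53-Y220C MS78 1 and 2), up to 0.0758. HIF1A lost it without any 1 of 8 (null DMSO 3 and 4, null MS78 2 to 4, p53-Y220C DMSO 2, p53-Y220C MS78 2 and 3), up to 0.079. With gene length offsets PGK1 (-0.43, adjusted p = 0.0676), P4HA1 (0.31, adjusted p = 0.0564) and PDK1 (-0.38, adjusted p = 0.0671) did not pass.

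Without null DMSO replicate 3 the interaction counts were 5 higher and 15 lower, and ALDOC, ENO2, PFKFB4 and ALDOA then passed with values of -1.65, -0.41, -0.63 and -0.22. ALDOC and ENO2 also passed without p53-Y220C MS78 replicate 4 (-1.54 and -0.35), and LDHB without p53-Y220C DMSO replicate 4 (-0.14). Libraries with PTPRC reads alone gave 5 higher and 9 lower, with 8 of the 17 core enzymes lower (median -0.35). Libraries without them gave 2 higher and 0 lower, with a core median of -0.22.

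**Figure D5:**
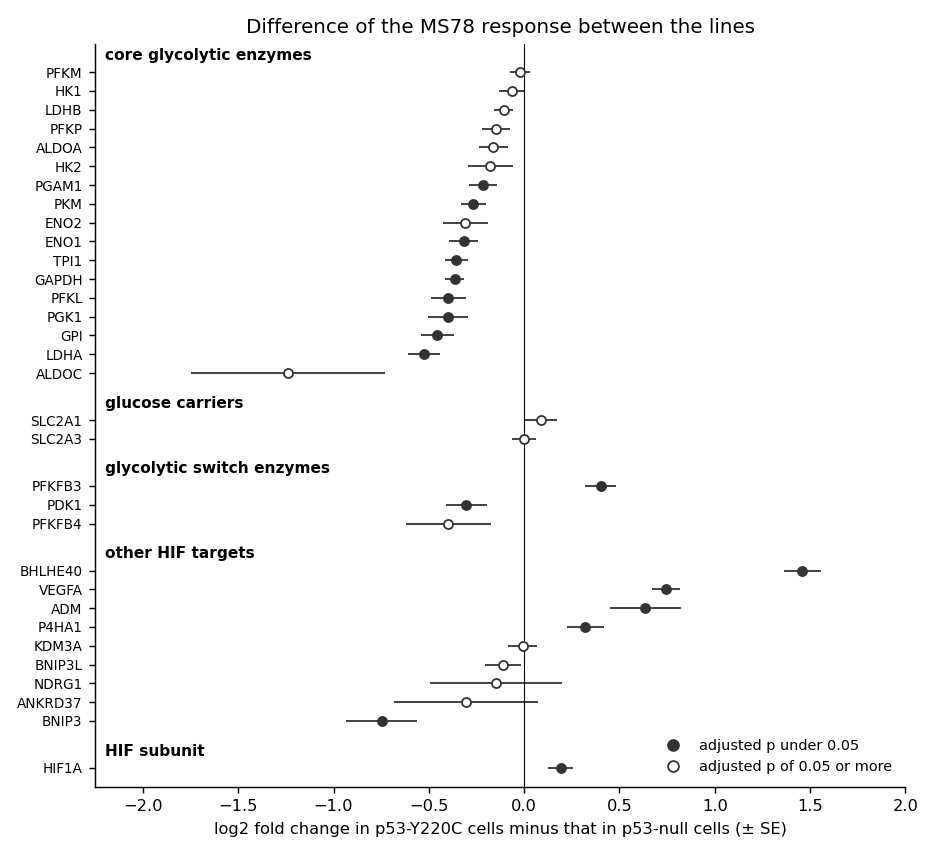
Log2 fold change of MS78 over DMSO in p53-Y220C cells minus that in null cells, with its standard error, for each tested member by role; open symbols did not pass an adjusted p of 0.05. All 17 core enzymes lie left of 0, the carriers lie at 0.09 and 0, and the other HIF targets run from -0.75 for BNIP3 to 1.46 for BHLHE40.

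Under DMSO the lines themselves were compared, sharing the DMSO libraries with the responses above. In p53-Y220C cells 6 of 32 members were higher and 18 lower than in null cells, where 50.2% of all genes passed (24.7% higher and 25.5% lower). The lines' libraries did not overlap for 16 of 32 members, against 43.6% of all genes, and the core enzymes split into 2 higher and 12 lower (median -0.19, all genes 0.00). PKM had the lowest adjusted p of these, with 1915 ± 142 CPM in p53-Y220C cells and 2898 ± 171 CPM in null cells (log2 -0.60 ± 0.0461 SE, adjusted p = 1.48e-09). PGK1 had a log2 difference of -0.49 (573 ± 19.1 CPM in p53-Y220C cells, 806 ± 140 CPM in null cells) and LDHA one of -0.40 (579.5 ± 14.2 CPM in p53-Y220C cells, 766 ± 99.7 CPM in null cells). GPI was higher by 0.42 (721 ± 29.8 CPM in p53-Y220C cells, 540.0 ± 61.8 CPM in null cells) and LDHB by 0.14. All 3 switch enzymes were lower in p53-Y220C cells, PFKFB3 with 16.04 ± 1.32 CPM against 26.3 ± 1.32 CPM in null cells (log2 -0.71 ± 0.0583 SE, adjusted p = 3.41e-09), PDK1 at a log2 difference of -0.59 and PFKFB4 at -0.52.

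Among the other HIF targets ADM was 1.73-fold higher in p53-Y220C cells than in null cells (adjusted p = 5.33e-05), SLC2A3 among the carriers was 1.32-fold higher, and BNIP3L and VEGFA had log2 differences of -0.32 and -0.21. BHLHE40 had 18.8 ± 1.32 CPM in p53-Y220C cells and 18.4 ± 2.13 CPM in null cells (adjusted p = 0.699). Several calls rested on single libraries. Without null DMSO replicate 3, ALDOC (-1.22) and PFKFB4 lost their calls (-0.82 and -0.28), ENO2 moved to -0.19 from -0.29, and the counts were 7 higher and 14 lower. BNIP3 (0.34, adjusted p = 0.0417) and HK1 (-0.12, adjusted p = 0.0483) kept their calls with only 1 of the 8 libraries left out (null DMSO 3 for BNIP3, where the value was 0.59, and null DMSO 4 for HK1). P4HA1 (0.18) lost its call without null DMSO 2 or 4 or p53-Y220C DMSO 1, 2 or 3, and PFKL (-0.17) without null DMSO 1, 2 or 3 or p53-Y220C DMSO 3 or 4, down to 0.11 and -0.11. PGAM1, HIF1A, KDM3A and PFKP did not pass, but each did without at least 1 library: PGAM1 without null DMSO 4 or p53-Y220C DMSO 1 or 2, HIF1A without null DMSO 4 or p53-Y220C DMSO 2, KDM3A without null DMSO 3 or p53-Y220C DMSO 2, and PFKP without null DMSO 4. The M1 share of PKM did not differ beyond the spread between p53-Y220C and null DMSO libraries (1.29% ± 0.261 and 1.07% ± 0.0981, exact permutation p = 0.171); without p53-Y220C DMSO replicate 2 the difference was 0.107 percentage points, against 0.223 with it. With gene length offsets, VEGFA (-0.14, adjusted p = 0.122) and SLC2A1 (-0.19, adjusted p = 0.102) did not pass between the lines, nor did P4HA1, PFKL, HK1 and BNIP3.

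Genes around the pathway were listed in the same way, and their counts stand against 24.9% of all genes higher and 23.6% lower in p53-Y220C cells, and 14.8% higher and 13.3% lower in null cells. Of 37 further HIF-responsive genes tested, 15 rose and 11 fell in p53-Y220C cells (median log2 fold change 0.10) and 21 rose and 2 fell in null cells (median 0.27). TFRC, the transferrin receptor, had 410.0 ± 10.9 CPM with MS78 and 143 ± 7.91 CPM with DMSO in p53-Y220C cells (2.87-fold) and 181 ± 3.81 CPM with MS78 and 105 ± 3.52 CPM with DMSO in null cells (1.72-fold). PGF, placental growth factor, had 14.7 ± 1.84 CPM with MS78 and 4.74 ± 0.398 CPM with DMSO in p53-Y220C cells (3.1-fold), and 4.68 ± 0.409 CPM with MS78 and 4.63 ± 0.459 CPM with DMSO in null cells. Its difference of responses was 1.62 (adjusted p = 1.73e-07), and those of P4HA2, another catalytic subunit of collagen prolyl 4-hydroxylase, and JMJD6, a lysyl hydroxylase, were 1.04 and 1.18. The 2 that fell in null cells were the stanniocalcin gene STC2 (log2 fold change -1.05) and DDIT4, an inhibitor of mTORC1 (-0.475).

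Of 15 genes for HIF subunits and oxygen sensing, 5 rose and 1 fell in p53-Y220C cells and 4 rose and 2 fell in null cells, where 48.5% of all genes passed in p53-Y220C cells and 28.1% in null cells. VHL, which marks hydroxylated HIF for degradation, fell in both lines, to 32 ± 2.82 CPM with MS78, against 45.9 ± 2.93 CPM with DMSO in p53-Y220C cells, and to 32.7 ± 1.79 CPM with MS78, against 40.3 ± 3.81 CPM with DMSO in null cells. EGLN1, the main HIF prolyl hydroxylase, rose 1.31-fold in p53-Y220C cells and 1.19-fold in null cells, and CUL2, a scaffold of the VHL ligase, rose in both (log2 0.25 and 0.24). SIAH2, ELOC and EPAS1 rose in p53-Y220C cells, and CITED4 rose and SIAH1 fell in null cells. CITED2, which competes with HIF for its coactivator, had 49.7 ± 3.38 CPM with MS78 and 49.4 ± 3.27 CPM with DMSO in p53-Y220C cells, and 89.4 ± 5.63 CPM with MS78 and 51.7 ± 1.01 CPM with DMSO in null cells (1.73-fold). Its difference of responses was -0.78 (adjusted p = 3.62e-07). EPAS1, the HIF-2 alpha gene, was 8.43-fold higher in p53-Y220C than in null cells under DMSO (7.40 ± 1.09 and 0.878 ± 0.220 CPM).

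Of 10 further genes of hexose and lactate transport tested, 4 rose and 1 fell in p53-Y220C cells. In null cells 2 rose and 2 fell. These counts stand against the same 48.5% and 28.1% of all genes. SLC2A6 (GLUT6) rose 4.73-fold in p53-Y220C cells (64.4 ± 3.43 CPM with MS78, 13.6 ± 0.942 CPM with DMSO) and 4.14-fold in null cells (70.3 ± 2.65 CPM with MS78, 17 ± 0.960 CPM with DMSO). SLC2A13 and the lactate carrier SLC16A1 also rose and EMB fell in p53-Y220C cells. SLC2A14 rose there too (adjusted p = 0.0425), but at a low level, with 0.627 ± 0.0923 CPM for MS78 and 0.339 ± 0.0622 CPM for DMSO. In null cells the lactate carrier SLC16A3 rose, and SLC16A1 and SLC2A8 fell. Of 9 further glycolytic isoenzymes and related enzymes tested, 3 rose (PFKFB2, TIGAR and ADPGK) and 1 fell (LDHD) in p53-Y220C cells. In null cells 3 rose (PFKFB2, LDHD and TIGAR) and 0 fell. TIGAR and LDHD are related enzymes, not isoenzymes of the pathway. PFKFB2, another maker of fructose-2,6-bisphosphate, rose 1.69-fold in p53-Y220C cells and 1.70-fold in null cells.

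PGD, a dehydrogenase of the pentose phosphate pathway, rose to 344 ± 15.5 CPM with MS78, against 222 ± 4.63 CPM with DMSO in p53-Y220C cells, and to 328 ± 6.03 CPM with MS78, against 205 ± 1.93 CPM with DMSO in null cells. TKTL1, a transketolase-like gene, had 0 to 6 reads per library in p53-Y220C cells with MS78 and 0 in all 4 with DMSO, so no fold is given for it; under DMSO it was at least 35.0-fold lower in p53-Y220C than in null cells (107 to 123 reads), with 3 reads as the floor of each library. Of 3 gluconeogenesis genes tested, 3 fell in p53-Y220C cells (PCK2, SLC37A4 and G6PC3) and 2 in null cells (PCK2 and SLC37A4). PCK2, the mitochondrial phosphoenolpyruvate carboxykinase, had log2 fold changes of -0.95 in p53-Y220C cells and -1.11 in null cells. Of 14 genes for pyruvate entry into mitochondria, 7 rose and 3 fell (PDK2, DLD and PDHA1) in p53-Y220C cells and 6 rose and 1 fell (PDK2) in null cells, again where 48.5% and 28.1% of all genes passed. PDP1, the phosphatase that opposes PDK1, rose 1.49-fold in p53-Y220C cells and 1.51-fold in null cells.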

How the data were processed

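RNA-seq reads of 16 libraries had been quantified per transcript by the authors. The deposited tables hold estimated counts per transcript (reads assigned by the quantifier, not whole) and TPM values with transcript lengths, per the file headers; for the quantifier's version and strand setting: not given in the sources used here. FastQC 0.11.8 and the build hg38 are named in the submitters' processing notes. Transcripts were matched to GENCODE 29 on GRCh38 (97.8% of 197653; 0.278 to 0.325% of reads were unmatched), and the deposited estimated counts were summed per gene and rounded. Depth was 20300000 to 27700000 reads per library. Replicates of a group differed beyond sampling noise (chi-square per gene 2.53 or more), so each counted once.

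One edgeR 4.0.16 quasi-likelihood fit (R 4.3.3) took all 16 libraries (12 residual degrees of freedom), with edgeR's default filter on low counts, TMM scaling and Benjamini-Hochberg adjustment over 15687 genes at 0.05. Unless a test is named, every adjusted p is from this fit, errors written after a log2 value are SE, and CPM is the gene's reads scaled to the TMM-adjusted library size. The fit was tested on simulated data. The M1 share of PKM was compared by exact permutation over libraries. The other shares of TPM are given without a test. A group at 0 was set to a floor of 3 counts per library. Alternatives were library totals, DESeq2 1.42.0 and its size factors, other filters, length offsets, protein-coding transcripts, pseudogene reads, leukocyte reads (a library counts as holding them from 10 PTPRC reads), the replicate block and leaving out each library. All members are named whatever their values; from each context list, up to 3 tested genes per comparison with the highest absolute log2 fold change past 0.05 and a mean of at least 1 CPM, and the genes of called counts of 5 or fewer. Members and lists were chosen with earlier results of these data known. Promoter sequences are from RefSeq (GRCh38.p14). Results for some genes are not reported here.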

Additional observations from a re-analysis of the deposited data

Results flagged for a closer look

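In 7 of 136 groups of 4 libraries, 1 library stood apart from the other 3 by the Dixon criterion, which chance meets in about 1 of 20 groups. In p53-Y220C cells with MS78, ANKRD37 had 2.61 CPM in replicate 3 (others 1.57 to 1.70) and BNIP3L had 92.7 CPM in replicate 4 (others 107 to 108). In p53-Y220C cells with DMSO, CA9 had 0.0939 CPM in replicate 3, and in null cells with DMSO it had 0.0431 CPM in replicate 3, with 0 in the others; these are single libraries with 1 or 2 reads. In null cells with MS78, HIF1A had 175 CPM in replicate 1 (others 159 to 161). In null cells with DMSO, PFKP had 143 CPM in replicate 4 (others 166 to 167) and GAPDH had 9153 CPM in replicate 3 (others 8126 to 8261).

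The response to MS78 in p53-Y220C cells minus that in null cells passed an adjusted p of 0.05 by edgeR's quasi-likelihood test for 17 members. Among core enzymes the log2 differences were -0.52 for LDHA, -0.46 for GPI, -0.40 for PGK1, -0.40 for PFKL, -0.36 for GAPDH, -0.35 for TPI1, -0.32 for ENO1, -0.27 for PKM and -0.22 for PGAM1. They were 0.40 for PFKFB3 and -0.30 for PDK1 among switch enzymes, and 0.19 for HIF1A. Among other HIF targets they were 1.46 for BHLHE40, 0.75 for VEGFA, 0.64 for ADM, 0.32 for P4HA1 and -0.75 for BNIP3.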

How the results depend on the processing

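Of 2784 member values recomputed under the alternatives, 2592 kept their side of the threshold, 159 no longer passed and 33 came to pass. Of the calls, 0 reversed direction. Values that had not passed could change sign and still count as kept, as for ALDOC in p53-Y220C cells (log2 -0.595 to 1.09). With gene length offsets 2857 genes passed in null cells (4402 in the report's fit) and 2743 for the difference of responses (4197), where the median of other HIF targets was 0.158. With library totals only, the core median in p53-Y220C cells was -0.23, with a median of all genes of -0.105. Within libraries with PTPRC reads 2346 genes passed in null cells, 1870 for the difference of responses and 3817 between the lines, and the other HIF targets' median difference of responses was 0.402. Within libraries without them, which hold 1 MS78 library per line assumed to vary like the others, 3490 genes passed in p53-Y220C cells (8 members higher, 2 lower), 1070 in null cells (8 and 0) and 411 for the difference (2 and 0, core median -0.22), and between the lines 3 members were higher and 10 lower. The cause was not tested; both sets hold fewer libraries.

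With 1 library left out, the median of other HIF targets in p53-Y220C cells ran from 0.384 to 0.594 (the highest without p53-Y220C DMSO replicate 3), that of their difference of responses from -0.0651 to 0.211 (the highest without the same library), and the core median difference from -0.355 to -0.226. Replicate numbers did not meet the criterion for pairing, a correlation over 0.1 in every pair: same-numbered deviations correlated at -0.502 to -0.0419 in null cells, -0.496 to -0.0674 in p53-Y220C cells and, between the DMSO groups of the lines, 0.452, 0.175, -0.0568 and 0.148 for numbers 1 to 4. With the replicate block 7442 genes passed in p53-Y220C cells, 4251 in null cells, 4060 for the difference and 7774 between lines. Members were then 15 higher and 10 lower, 17 and 1, 6 and 11, and 6 and 17 in the same order; the block took the calls of ANKRD37 in p53-Y220C cells and HK1 between the lines and changed no other call of a member. Counting depth limits ALDOC, ANKRD37 and NDRG1, and leaves CA9 and EGLN3 untested.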
